A study of Homo sapiens with 9 samples.

Results

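The 10 genes described here, FN1, LUM, SPARC, TGM2, VIM, CDH2, ZEB1, ZEB2, SNAI2 and TWIST1, are widely used as markers or drivers of the mesenchymal state. They were chosen by name, with earlier results of these data known. Every probe set that the array's gene table gives to them was taken, which made 30 of the 54675 probe sets and 10 of the 19775 genes with a probe set of their own. The RNA came from HT-29, a line of human colon adenocarcinoma cells from ATCC grown as a monolayer and given 5-aza-deoxycytidine (5-Aza), which is built into DNA in place of deoxycytidine and traps DNA methyltransferases. Cultures in triplicate received the DMSO vehicle alone (0 µM), 5 µM 5-Aza or 10 µM 5-Aza, and each of the 9 cultures was hybridised to 1 Affymetrix U133 Plus 2.0 array. All cells are of this 1 line, so the results describe its response and not that of colon tumours in general. The comparisons asked which of these genes differed between vehicle and each dose, and between the doses.

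In the epithelial to mesenchymal transition (EMT), cells bound to each other by E-cadherin (CDH1) give up their junctions and keratin network and take on vimentin filaments, N-cadherin and a fibronectin-rich matrix. The transcription factors of the ZEB, Snail and Twist families drive this by repressing CDH1 and other epithelial genes, and in epithelial tumour lines several mesenchymal genes are known to carry methylated promoters. SPARC is a classic case of a gene silenced by promoter methylation in colon cancer.

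The DNA methyltransferases that 5-Aza traps methylate cytosines of CpG dinucleotides. The stretch of 250 bases upstream of the annotated start is therefore shown for FN1, VIM and SPARC. FN1 and VIM were below the signal floor on every vehicle array and above it on all 3 arrays at 5 µM, while SPARC stayed below it. The sequences are from RefSeq on GRCh38.p14, read 5′ to 3′ on the strand of the gene, with each CpG in capitals. They lie at chr2:215436069-215436318 on the minus strand (FN1), chr10:17227991-17228240 on the plus strand (VIM) and chr5:151686916-151687165 on the minus strand (SPARC).
FN1: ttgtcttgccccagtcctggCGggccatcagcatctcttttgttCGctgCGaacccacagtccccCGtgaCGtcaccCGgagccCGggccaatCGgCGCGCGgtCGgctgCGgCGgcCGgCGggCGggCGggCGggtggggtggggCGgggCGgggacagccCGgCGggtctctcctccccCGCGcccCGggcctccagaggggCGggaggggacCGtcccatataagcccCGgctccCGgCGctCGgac
VIM: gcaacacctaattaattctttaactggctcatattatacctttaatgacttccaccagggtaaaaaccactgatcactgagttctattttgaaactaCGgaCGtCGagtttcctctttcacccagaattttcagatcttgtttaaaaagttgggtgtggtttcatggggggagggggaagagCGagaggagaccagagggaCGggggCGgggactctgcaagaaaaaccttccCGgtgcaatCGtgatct
SPARC: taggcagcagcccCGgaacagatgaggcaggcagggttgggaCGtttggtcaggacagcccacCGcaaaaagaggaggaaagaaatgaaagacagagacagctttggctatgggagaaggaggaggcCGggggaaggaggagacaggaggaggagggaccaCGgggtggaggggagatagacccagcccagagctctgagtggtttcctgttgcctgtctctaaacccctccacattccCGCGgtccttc
The FN1 stretch holds 32 CpG, against 8 in VIM and 7 in SPARC. Counted over the whole RefSeq window, which runs 50 bases past the start, FN1 has 38 CpG and a GC content of 76.7%, and 90.1% of all 35116 such windows have fewer CpG. The windows of VIM, with 10 CpG, and SPARC, with 11, lie below the median of 14 over all windows. Windows of 6 of the 10 genes were at hand, 13 in all. ZEB2 has 14 CpG in its window, the 7 windows of ZEB1 hold 7 to 35 and the 2 windows of CDH2 hold 4 to 23. Methylation was not measured on these arrays, so CpG counts describe the sequence only.

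**Figure D1:**
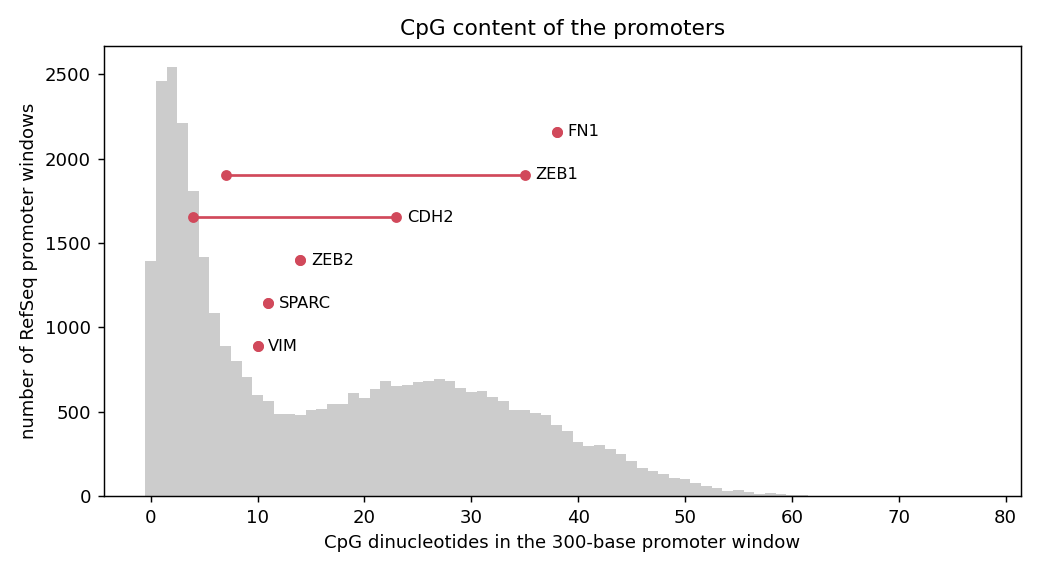
Grey bars count RefSeq promoter windows of 300 bases (y axis) by their number of CpG dinucleotides (x axis), and red points joined by a line give the lowest and highest window of each gene, placed at arbitrary heights. FN1, at 38 CpG, lies in the CpG-rich tail, while VIM and SPARC, at 10 and 11, lie below the median of 14.

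The windows were also searched on both strands for CACCTG, the E-box hexamer that ZEB and Snail factors are known to bind and whose reverse complement is CAGGTG. It stood in 20.6% of all windows and, among these genes, in 2 of the 7 windows of ZEB1 alone. The palindrome TGACGTCA, known as the cAMP response element, was found in 1.85% of all windows and in FN1 alone of these genes, where it can be read in the printed stretch as tgaCGtca. The letters TATAA, looked for on both strands, stood in 20.4% of all windows. Among these genes they stood in windows of CDH2, FN1, VIM, ZEB1 and ZEB2. These are matches of letters and not measured binding sites.

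Signals are log2 values, and the median of each array served as the floor below which a signal was not counted as expression. The floor was 5.07 to 5.20 on the vehicle arrays, 5.41 to 5.42 at 5 µM and 5.25 to 5.52 at 10 µM. A gene was called higher or lower at an adjusted p of at most 0.05 (limma, Benjamini-Hochberg over 11758 genes tested) and more than 2-fold. At 5 µM against vehicle 1011 genes were called higher and 155 lower, and this split was 787 to 212 after quantile normalization and 721 to 443 with equal array medians, which moved the median of all tested genes from 0.04 to -0.22. At 10 µM against vehicle the split was 716 to 176, against 514 to 231 and 459 to 475, with a median of -0.23 under equal medians. The actin control, whose 3' signal less its 5' signal reflects RNA integrity and labelling, rose with dose without overlap on the log2 scale, from 1.91 to 2.29 with vehicle, 2.49 to 2.69 at 5 µM and 2.84 to 3.17 at 10 µM. The 18S rRNA 5' signal was 13.45 and 13.60 on replicates 2 and 3 at 10 µM and 11.77 to 12.56 on the other 7 arrays. The part of either in the results was not tested beyond the fits given below. Of 11 markers of colon epithelial lines, 9 reached the floor on all 3 vehicle arrays and 8 at each dose, but the intestinal factors CDX1 and CDX2 were below it on all 9 arrays.

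Of the 30 probe sets, 18 were below the floor on all 9 arrays and 10 reached it on all 3 arrays of at least 1 dose. These 10 belong to FN1 (3 of its 7), LUM (1 of 2), TGM2 (4 of 4), VIM (1 of 2) and ZEB1 (1 of 4), and only these 5 genes could be tested. FN1 and VIM entered the test through the treated arrays alone, so a difference from vehicle was built into their entry. The other 5 genes, SPARC, CDH2, ZEB2, SNAI2 and TWIST1, lay below the floor with every probe set. Values of a gene are those of its probe set of highest mean signal unless another is named. In bulk RNA, fewer expressing cells and less RNA per cell cannot be told apart.

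**Figure D2:**
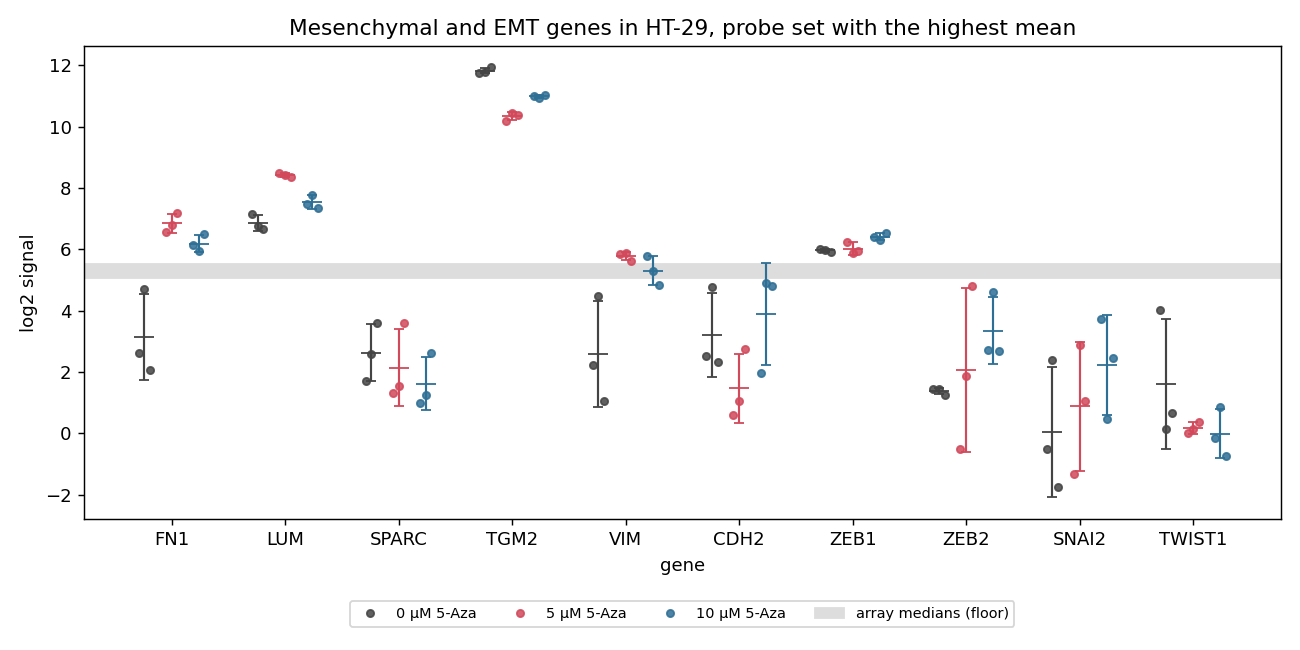
Log2 signal (y axis) of the probe set with the highest mean for each of the 10 genes (x axis), with 3 arrays per dose as points, bars for mean ± SD, and a grey band for the range of array medians used as the floor. FN1 crosses the band with 5-Aza. VIM does so on all 3 arrays at 5 µM and 1 array at 10 µM, where 1 array lies inside the band and 1 below it. LUM and TGM2 move in opposite directions above the band, and the other genes except ZEB1 stay below it.

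Among the matrix genes, FN1 and LUM rose at 5 µM, FN1 from below the floor and LUM from a signal already above it, while SPARC stayed below the floor. FN1 encodes fibronectin, a glycoprotein that links cells to the matrix through integrins. Its leading probe set, 210495_x_at, read 2.61, 4.72 and 2.07 with vehicle, 6.58, 6.78 and 7.19 at 5 µM, and 6.14, 5.94 and 6.49 at 10 µM. All 6 treated arrays were above the floor and all 3 vehicle arrays below it, and the 3 arrays at 10 µM were all lower than the 3 at 5 µM. With vehicle signals raised to the floor, FN1 was at least 3.25-fold higher at 5 µM and at least 2.06-fold higher at 10 µM. The fitted log2 fold changes, which rest on signals under the floor and are no bounds, were 3.71 ± 0.58 (SE, n = 3 per group, limma adjusted p = 0.00166) and 3.06 ± 0.58 (adjusted p = 0.00523). The 10 µM arrays differed from the 5 µM arrays by a log2 fold change of -0.66 with a 95% interval of -1.97 to 0.65 (limma adjusted p = 0.465).

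The other probe sets of FN1 split into those that moved with the leading set and those that stayed dim. Probe set 212464_s_at read 2.07, 2.00 and 2.20 with vehicle, 6.82, 6.17 and 6.86 at 5 µM, and 5.44, 5.70 and 5.74 at 10 µM. Its vehicle arrays had an SD of 0.10 and lay far under the floor, and it was at least 2.77-fold higher at 5 µM and at least 1.40-fold at 10 µM, where 2 of 3 arrays reached the floor. Against 5 µM, the 10 µM arrays of this set were 1.98-fold lower without overlap (limma adjusted p = 0.02 over 27144 probe sets), just under the 2-fold threshold. Probe set 211719_x_at read 0.58, 0.38 and 1.81 with vehicle, 6.24, 5.76 and 6.59 at 5 µM, and 5.94, 5.35 and 4.50 at 10 µM. It was at least 2.07-fold higher at 5 µM and at least 1.09-fold at 10 µM. A further set, 216442_x_at, reached the floor on 2 arrays at 5 µM and 1 at 10 µM, and was at most 3.55 with vehicle. The remaining sets, 1558199_at, 214701_s_at and 214702_at, were below the floor on all 9 arrays, with a highest signal of 4.81. Probe sets of 1 gene are measured on the same RNA and are not replicates.

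**Figure D3:**
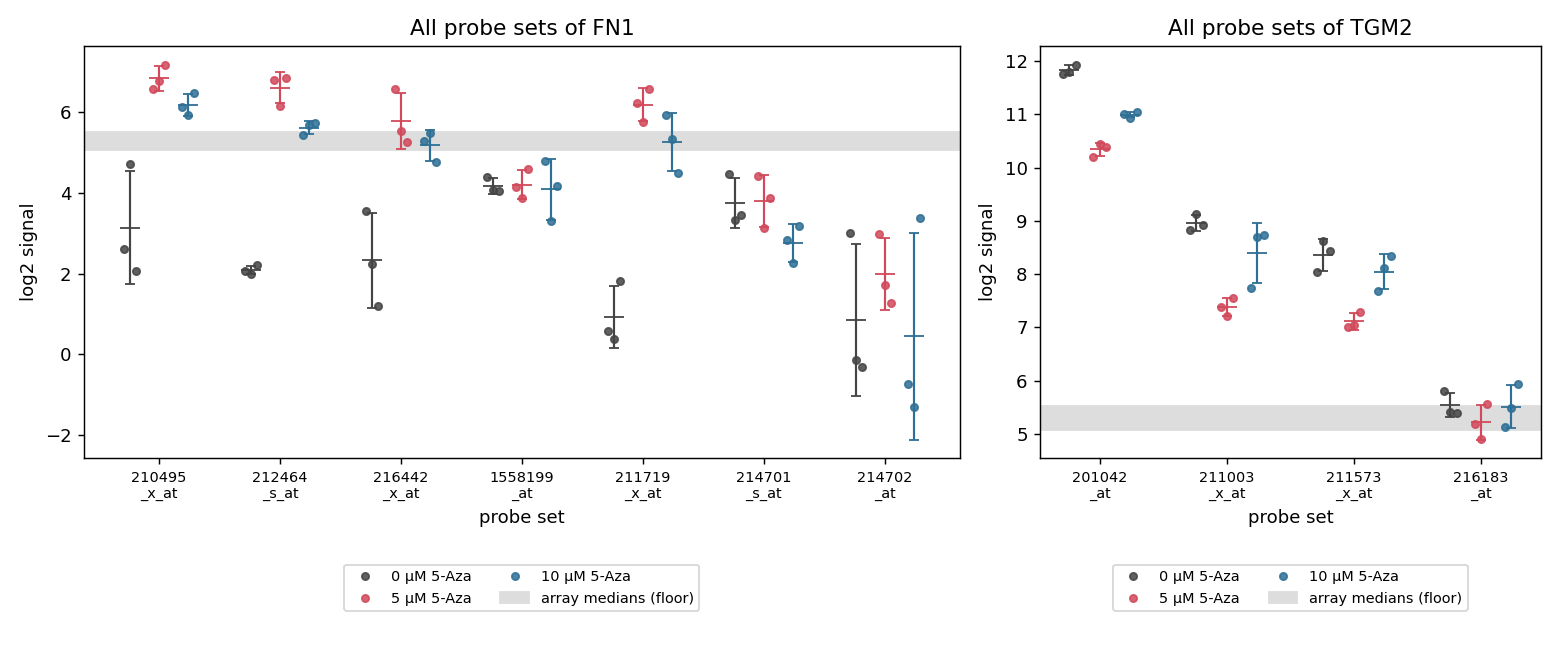
Log2 signal (y axis) of all probe sets (x axis) of FN1 (left) and TGM2 (right), with 3 arrays per dose as points, mean ± SD as bars and the floor as a grey band. Of the 7 sets of FN1, 4 rise to or past the floor with 5-Aza and 3 stay under it. All 4 sets of TGM2 have their lowest mean at 5 µM, 3 of them without overlap with the other doses.

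LUM encodes lumican, a small leucine-rich proteoglycan that binds and spaces collagen fibrils. Its probe set 201744_s_at read 7.16, 6.76 and 6.68 with vehicle, 8.50, 8.44 and 8.37 at 5 µM, and 7.48, 7.79 and 7.36 at 10 µM. The doses did not overlap, and the 10 µM arrays lay between the vehicle and the 5 µM arrays. LUM rose 2.97-fold at 5 µM (limma adjusted p = 0.000166). At 10 µM it was 1.85-fold lower than at 5 µM (log2 fold change -0.89 ± 0.16, limma adjusted p = 0.00911) and 1.60-fold higher than with vehicle (limma adjusted p = 0.0117), both under the 2-fold threshold. Without 10 µM replicate 2, the highest of its dose, the fall from 5 to 10 µM passed the threshold (log2 fold change -1.01, limma adjusted p = 0.0078). The second set of LUM, 229554_at, was between 2.96 and 4.63 on the 9 arrays, below every floor.

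SPARC encodes osteonectin, a secreted protein that binds collagen and calcium. Probe set 200665_s_at read 1.72, 2.58 and 3.61 with vehicle, 1.32, 1.54 and 3.58 at 5 µM, and 1.00, 1.26 and 2.61 at 10 µM. Probe set 212667_at read -0.32, 1.68 and 1.48 with vehicle, -1.32, 3.25 and 1.68 at 5 µM, and 1.77, 2.87 and 4.15 at 10 µM. The doses overlapped in the first set, and in the second all 3 arrays at 10 µM were above those with vehicle. With every value under the floor, no fold was taken, and these arrays do not show whether SPARC RNA changed. By qRT-PCR and sequencing of the same RNA samples, the paper detected SPARC at 5 µM but not in control. Its array data did not show this activation.

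TGM2 fell on these arrays, in contrast to FN1 and LUM. The paper's qRT-PCR of the same RNA samples found no significant change of TGM2 at 5 µM, while its array and sequencing values were lower than control. TGM2 encodes tissue transglutaminase, an enzyme that crosslinks matrix proteins, fibronectin among its partners. Probe set 201042_at read 11.77, 11.80 and 11.93 with vehicle, 10.20, 10.44 and 10.39 at 5 µM, and 11.01, 10.94 and 11.04 at 10 µM. The doses did not overlap, with vehicle highest, 10 µM between and 5 µM lowest. TGM2 fell 2.81-fold at 5 µM (log2 fold change -1.49 ± 0.10, limma adjusted p = 2.28e-05). At 10 µM it was 1.58-fold above the 5 µM level (limma adjusted p = 0.00626) and 1.78-fold below vehicle (limma adjusted p = 0.000749), neither past 2-fold.

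Probe sets 211003_x_at and 211573_x_at of TGM2 showed the same low point at 5 µM. The first read 8.83, 9.13 and 8.91 with vehicle, 7.38, 7.22 and 7.55 at 5 µM, and 7.74, 8.70 and 8.73 at 10 µM. It fell 2.98-fold at 5 µM (limma adjusted p = 0.0031) and was 2.01-fold higher at 10 µM than at 5 µM, just past the threshold (limma adjusted p = 0.0445). The second fell 2.38-fold at 5 µM (limma adjusted p = 0.00332) and was 1.91-fold higher at 10 µM than at 5 µM (limma adjusted p = 0.0299). At 10 µM against vehicle, log2 fold changes were -0.57 (95% interval -1.14 to 0.01) in the first and -0.32 (95% interval -0.78 to 0.15) in the second. The dimmest set, 216183_at, was 4.91 to 5.93 on the 9 arrays and overlapped between all doses, with a log2 fold change of -0.32 at 5 µM against vehicle (95% interval -0.86 to 0.22).

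VIM, which encodes the intermediate filament vimentin of mesenchymal cells, rose from below the floor to just above it. Probe set 201426_s_at read 2.23, 4.47 and 1.07 with vehicle, 5.85, 5.87 and 5.63 at 5 µM, and 5.78, 5.30 and 4.83 at 10 µM. No vehicle array, all 3 arrays at 5 µM and 2 of 3 at 10 µM reached the floor, and the doses of 5-Aza overlapped each other but not vehicle. With vehicle signals raised to the floor, VIM was at least 1.55-fold higher at 5 µM and at least 1.12-fold higher at 10 µM. It was called higher at both doses by the fitted log2 fold changes, which rest on signals under the floor and are no bounds. These were 3.19 ± 0.71 at 5 µM (SE, n = 3 per group, limma adjusted p = 0.00905) and 2.71 ± 0.71 at 10 µM (limma adjusted p = 0.0192). Between the doses the log2 fold change was -0.48, with a 95% interval of -2.08 to 1.13. These calls depend on how dim signals enter the test: with all low signals raised to the floor, the log2 fold change at 5 µM was 0.64 (limma adjusted p = 0.00504), which is under 2-fold. The call at 5 µM was also lost with the methods' t-test (adjusted p = 0.0805), and VIM was too dim to be tested with a floor at the 60th percentile. At 10 µM it was lost without 0 µM replicate 1 (limma adjusted p = 0.0621) and without 10 µM replicate 1 (limma adjusted p = 0.0589). The second set of VIM, 1555938_x_at, was -0.52 to 4.03 on the 9 arrays, below every floor.

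CDH2 encodes N-cadherin, the adhesion molecule that takes the place of E-cadherin in mesenchymal cells. Neither of its probe sets reached the floor on any array, and the highest signal was 4.89, in 203441_s_at on 10 µM replicate 2. CDH1 was bright, at 13.29, 13.35 and 13.50 with vehicle, 13.24, 13.42 and 13.47 at 5 µM, and 13.15, 12.75 and 12.50 at 10 µM. Its log2 fold change at 5 µM was 0.00 (95% interval -0.37 to 0.36), and at 10 µM all 3 arrays were below all vehicle arrays, by -0.58 (limma adjusted p = 0.0252), under 2-fold.

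Of the transcription factors, ZEB1 alone was above the floor. It encodes a zinc finger repressor of CDH1 and of epithelial microRNAs. Probe set 212764_at read 6.02, 5.99 and 5.92 with vehicle, 6.26, 5.88 and 5.94 at 5 µM, and 6.41, 6.30 and 6.53 at 10 µM. The 10 µM arrays were above all others, by 1.35-fold against vehicle (limma adjusted p = 0.0248) and by 1.31-fold against 5 µM (limma adjusted p = 0.0617), so ZEB1 was not called. At 5 µM the log2 fold change was 0.05 (95% interval -0.23 to 0.32), and its sign turned with quantile normalization (-0.23), with equal array medians (-0.22) and without 5 µM replicate 1 (-0.068). Set 212758_s_at reached the floor on 2 vehicle arrays only, and 210875_s_at and 239952_at on none.

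The other factors gave no signal above the floor. All 5 probe sets of ZEB2, the paralog of ZEB1, stayed under it, with a highest signal of 4.81 on 5 µM replicate 3. The set of SNAI2, which encodes the repressor Slug, ranged from -1.74 to 3.73, and that of TWIST1, a basic helix-loop-helix factor, from -0.74 to 4.03. Values this dim varied by up to several log2 units between arrays of the same dose, so no order of the doses was read from them.

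**Figure D4:**
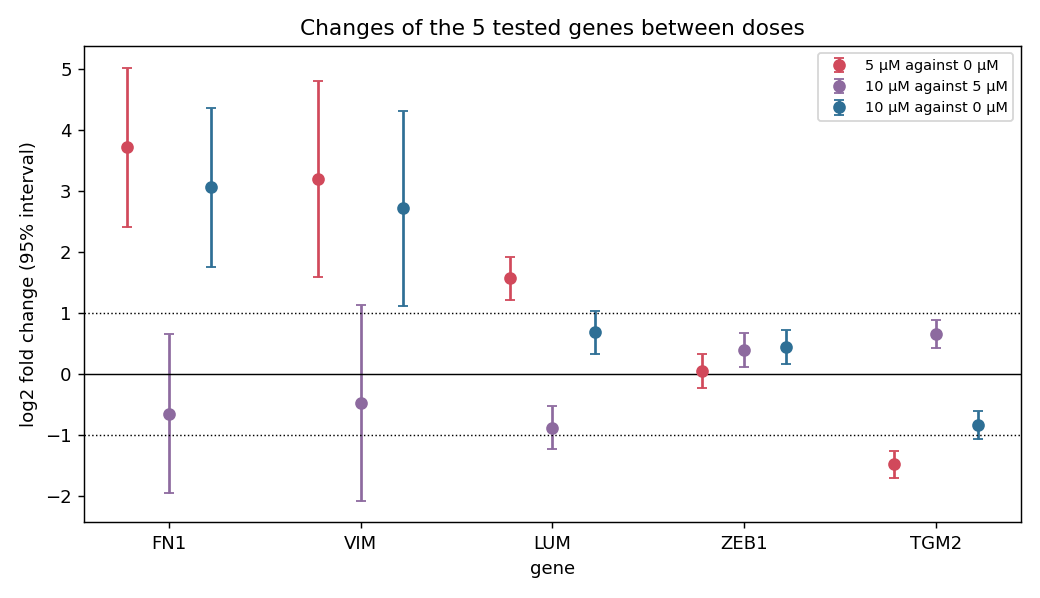
Log2 fold changes (y axis) of the 5 tested genes (x axis) for each dose against vehicle and for 10 µM against 5 µM, with 95% intervals from limma, and dotted lines at 2-fold. LUM and TGM2 have narrow intervals, at 1.57 and -1.49 for 5 µM against vehicle, while those of FN1 and VIM, whose vehicle signals lie under the floor, are wide.

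At 5 µM against vehicle, 3 of the 5 tested genes were called higher (FN1, LUM and VIM), beside 8.60% of all tested genes, and 1 was called lower (TGM2), beside 1.32%. LUM alone of the 3 had been above the floor with vehicle, and of all 10879 genes expressed there 4.51% were called higher. Without regard to size, FN1, LUM and VIM were higher on all 3 arrays than on every vehicle array (31.0% of all tested genes) and TGM2 lower (25.4%). At 10 µM against vehicle, 2 were called higher (FN1 and VIM), beside 6.09% of all tested genes. Of the 3 genes already at the floor with vehicle (LUM, TGM2 and ZEB1), 0 were called higher, beside 3.12% of all such genes. None of the 5 was called lower by limma, beside 1.50% of all tested genes, with 1 (TGM2) at an unadjusted p under 0.05 and 0 by the methods' t-test. Arrays did not overlap for FN1, LUM, VIM and ZEB1, all higher (25.5%), and for TGM2, lower (19.0%). At 10 µM against 5 µM limma called 0 higher and 0 lower, beside 0.264% and 2.08% of all tested genes, and the methods' t-test likewise called 0. At an unadjusted p under 0.05, 2 genes were higher (TGM2 and ZEB1) and 1 lower (LUM). For FN1, LUM and TGM2 the 5 µM arrays stood farther from vehicle than the 10 µM arrays did, without overlap between the doses; arrays of a dose pair failed to overlap in this way for 17.3% (10 µM higher) and 18.6% (10 µM lower) of all tested genes. Of the 10 probe sets tested singly, 5 were called higher at 5 µM (6.38% of all 27144) and 3 lower (1.18%), 4 were called higher at 10 µM (5.46%), and 1, of TGM2, was called higher at 10 µM than at 5 µM (0.354%). The comparisons with vehicle share its 3 arrays.

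The calls of FN1 and VIM were lost in a fit with the actin signal, in which the standard errors were larger. The actin 3' minus 5' value of each array was the covariate. At 5 µM this fit gave log2 fold changes of 3.82 ± 1.17 for FN1 (SE, limma adjusted p = 0.107) and 4.81 ± 1.26 for VIM (limma adjusted p = 0.0671). Without the covariate these were 3.71 ± 0.58 and 3.19 ± 0.71. At 10 µM the fit with the covariate gave 3.25 ± 1.87 for FN1 (SE, n = 3 per group, limma adjusted p = 0.728) and 5.60 ± 2.01 for VIM (limma adjusted p = 0.477), against 3.06 and 2.71. In that fit limma called 0 of all tested genes at 10 µM against vehicle, with 998 at an unadjusted p under 0.05. LUM and TGM2 remained called at 5 µM in this fit. Since actin and dose moved together without overlap, their parts cannot be told apart at either dose. Without 10 µM replicates 2 and 3, limma adjusted p at 10 µM was 0.0572 for FN1 and 0.0793 for VIM, from the 1 array left in that group, whose spread was taken from the others.

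By rule, the genes outside the set with the most similar signal over the 9 arrays were listed for each gene called. For FN1 these were OSCAR (Pearson r = 0.990), GDAP1 (0.982) and POLQ (0.982), and for VIM CST4 (0.970), CD22 (0.969) and OSCAR (0.966). For LUM they were NFE4 (0.989), FBXL13 (0.986) and CD55 (0.985). For TGM2 they were RARRES1 (0.991), CLRN3 (0.990) and BHLHE41 (0.989), and RARRES1 read 10.63 to 10.82 with vehicle, 8.72 to 9.06 at 5 µM and 9.42 to 9.80 at 10 µM. These are the highest of all tested genes over only 9 arrays that share doses and RNA quality, and are given as a description. For FN1, VIM, OSCAR, GDAP1 and CST4 every vehicle signal was under the floor, with replicate 2 the highest of them. Their r values thus rest in part on signals too dim to be read.

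Some other genes of the EMT were called too, from a list chosen with earlier results of these data known. Of 79 other EMT genes 77 were on the array and 41 were tested. At 5 µM against vehicle 24 of the 41 had a positive log2 fold change. At 5 µM against vehicle 13 were called higher (8.60% of all tested genes) and 1 lower (1.32%), and the median log2 fold change was 0.23 beside 0.04 over all tested genes. By role, 5 of 8 tested matrix genes were called higher, 3 of 8 matrix enzymes, 3 of 7 surface proteins, 1 of 5 cytoskeletal genes and 1 of 9 signalling genes. Of 4 other EMT transcription factors tested, limma called 0 higher and 0 lower. At an unadjusted limma p under 0.05, 0 of them were higher and 1 was lower (SOX9, log2 fold change -0.47). Of these 13, 5 had all 3 vehicle arrays under the floor, and of the 33 genes already at the floor there 6 were called higher (4.51% of all such genes). By role these were 1 of 3 matrix genes, 1 of 6 matrix enzymes, 2 of 6 surface proteins, 1 of 5 cytoskeletal genes and 1 of 9 signalling genes, so many matrix genes entered the test through the treated arrays, and the roles were not compared by a test.

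The largest of these rises, taken by fitted change, included collagens VI and I. COL6A3 was at least 2.53-fold higher at 5 µM, COL6A1 rose by a log2 fold change of 2.17 ± 0.39 (limma adjusted p = 0.0034), and COL1A1 rose from 6.67 to 9.35, by 2.68 ± 0.26 (limma adjusted p = 0.000141). The membrane protein EMP3 was at least 2.53-fold higher, the metalloproteinase inhibitor TIMP3 at least 1.93-fold and the collagen crosslinking oxidase LOX at least 1.35-fold. The gene called lower was CD44, the hyaluronan receptor, from a mean of 12.57 with vehicle to 11.56 (limma adjusted p = 0.00013), just past 2-fold, and is named after its value was seen. COL1A1 was also the only gene of 8 fibroblast markers to reach the floor on all 9 arrays. The summed linear signal of the 8 was 174 to 295 with vehicle, 745 to 781 at 5 µM and 424 to 594 at 10 µM. At 5 µM, 7 of the 8 were below the floor on every array of that dose. The sum there is thus mostly COL1A1 and shows no rise of the markers as a set. COL3A1, PDGFRA, PDGFRB, THY1 and FAP were below the floor on every array, and COL1A2 and DCN reached it on 1 array each.

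Some of the other EMT genes were lower at 10 µM than at 5 µM. Of the 41, 4 were called lower (2.08% of all tested genes): COL6A1 (log2 fold change -1.76), the membrane scaffold CAV1 (-1.46), the receptor kinase AXL (-1.39) and LOX, which was at least 1.12-fold lower since all its 10 µM arrays were under the floor, and the list's median was -0.24 beside -0.01. Against vehicle 6 were called higher (6.09% of all tested genes), with a median of 0.11 beside 0.05. Of the 33 genes already at the floor with vehicle, 1 was called higher at 10 µM, beside 3.12% of all such genes. COL1A1 (log2 fold change 1.98) and the matrix glycoprotein TNC (1.53) were above the floor on all 10 µM arrays, COL6A3, EMP3 and TIMP3 were at least 1.04-, 1.22- and 1.02-fold higher, and LOX was below the floor in both groups. Over the alternatives the count called higher ranged from 5 to 19 at 5 µM and from 0 to 12 at 10 µM, the lowest counts coming with the actin covariate.

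Close relatives of the genes were mostly below the floor. Of 41 family members 40 were on the array and 7 were tested, and at 5 µM 3 were called higher (8.60% of all tested genes): PRPH, a filament protein of the vimentin class (log2 fold change 3.16, and 2.26 once values under the floor are set to it), the cadherin CDH15 (at least 1.71-fold) and BGN, a proteoglycan of the lumican family. BGN rose from 8.91 to 10.30 at 5 µM (log2 fold change 1.39 ± 0.17, limma adjusted p = 0.000459) and was 9.69 at 10 µM. None of the 7 other transglutaminases was tested, since none reached the floor on all 3 arrays of a dose with its brightest probe set.

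Among epithelial genes, all 47 on the array were tested. At 5 µM 2 were called higher (8.60% of all tested genes), the mucin MUC1 (log2 fold change 2.74) and the keratin KRT23 (2.03), and 1 lower (1.32%), the keratin KRT19 (-1.54), with a list median of -0.18 beside 0.04 over all genes. At 10 µM against vehicle MUC1 was called higher (1.64, beside 6.09% of all tested genes) and 4 genes lower (1.50%): KRT19 (-1.37), KRT7 (-1.19), KRT8 (-1.05) and the epithelial factor ELF3 (-1.04), with a median of -0.28 beside 0.05. Against 5 µM, 3 were called lower at 10 µM (2.08%): KRT7 (-1.97), KRT23 (-1.12) and MUC1 (-1.10). Over the alternatives the count called lower ranged from 0 to 13 at 5 µM (5 with equal array medians) and from 0 to 17 at 10 µM against vehicle, and the count called higher from 0 to 8 and from 0 to 4.

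**Figure D5:**
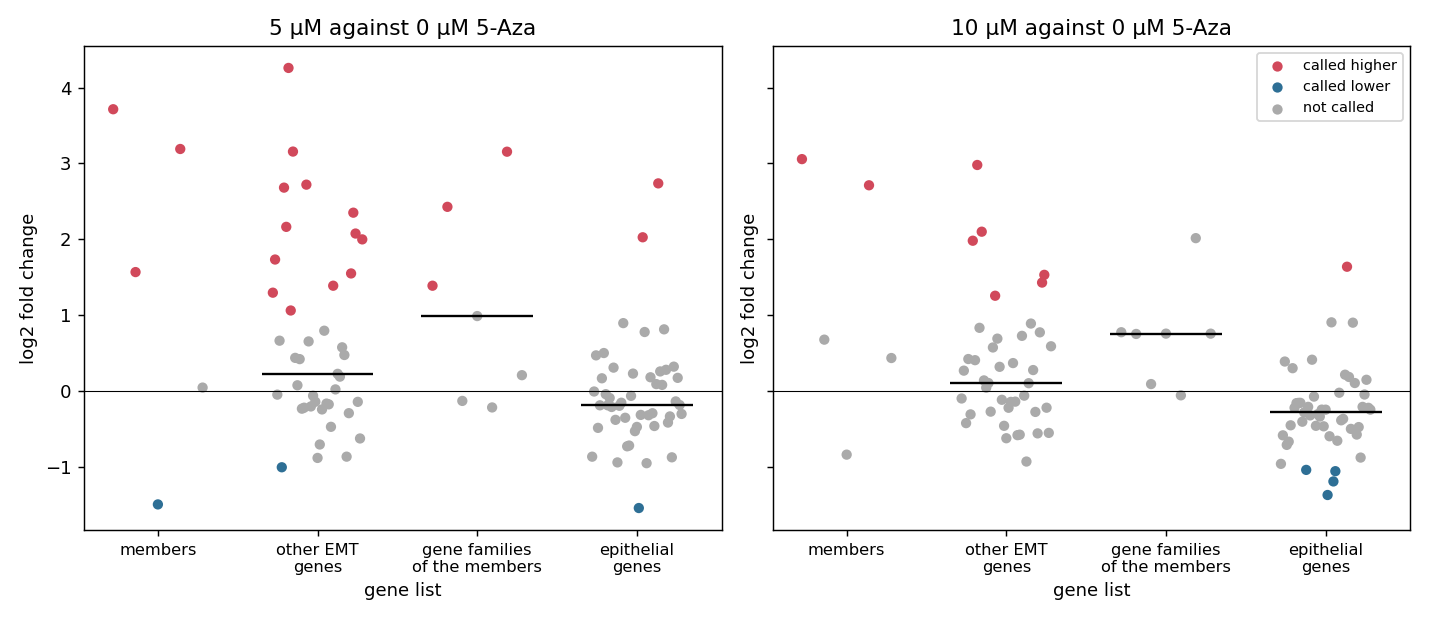
Log2 fold changes (y axis) of each tested gene at 5 µM (left) and 10 µM (right) against vehicle, by list (x axis), coloured by whether the gene was called, with the median of each of the 3 surrounding lists as a black line. At 5 µM 13 of the 41 other EMT genes are called higher, and the epithelial median of -0.18 lies under 0.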

How the data were processed

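Total RNA of 9 HT-29 cultures, 3 per dose, was labelled with biotin and hybridised to 1 array each. The labels gave the groups. The file deposited by the authors holds log2 signals of 54675 probe sets. The submitters' processing notes name RMA and affy 1.14.2, but the values have the form of MAS 5.0 signals: their minimum is -3.32, their linear 2% trimmed mean is 250.0 on every array, and sorted values differ between arrays by up to 1.58. The arrays were thus scaled by 1 factor each, dim signals are noisy, and the precision is limited by 3 arrays per dose.

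Names of probe sets came from GEO's platform annotation, updated to RefSeq symbols (41091 had 1 gene, 1801 several, 11721 none). The 62 controls and 6 probe sets with a missing value were left out. A gene's values were those of its brightest probe set on average, and it was tested when these reached the median of the array for every replicate of at least 1 dose. The moderated test of limma 3.58.1 (R 4.3.3, two-sided, a mean for each dose, all 9 arrays) was tested on simulated data and gave the fold changes. A bound ("at least") was taken where all arrays of the lower group were under the floor. The signals of that group were first set to the floor of each array, and those of the higher group were kept as measured. Student's test per gene is called the methods' t-test.

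The members and the gene lists were chosen with earlier results of these data known. Named besides the 10 genes are up to 6 called genes per list and comparison with the largest fitted change, and the 3 genes most correlated with each called gene. Promoter windows were read from RefSeq (GRCh38.p14). Alternatives covered filter, floor, choice of probe set, groups fitted, replicate block, test, normalization, low signals, actin covariate, fold threshold and each array left out. After seeing the data, a fit without 10 µM replicates 2 and 3 was added. Sequencing data were not used here. Python 3.11.15 and matplotlib 3.10.9 made the plots.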

Additional observations from a re-analysis of the deposited data

How the results depend on the processing

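The 15 changes of the 5 tested genes were recomputed under up to 24 settings, which gave 321 values: 295 kept their direction and side of the thresholds, 15 lost and 7 gained a call, and 4 turned in sign. The changes of LUM (1.04 to 2.02) and TGM2 (-1.76 to -1.16) at 5 µM stayed called in the 22 and 23 settings that tested them. LUM was not tested with plain _at sets. The sign turned for ZEB1 at 5 µM with quantile normalization (-0.23), equal medians (-0.22) and without 5 µM replicate 1 (-0.068, in a range of -0.068 to 0.12 as each array was left out), and for VIM at 10 against 5 µM with the actin covariate (0.79).

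At 5 µM against vehicle, the 3 genes called higher became 1 with the mean of a gene's probe sets, 0 with plain _at sets and 1 with the actin covariate, and 2, without VIM, with the methods' t-test, low signals raised and a floor at the 60th percentile, where VIM is not tested. FN1 and VIM are not tested with the mean of probe sets, nor FN1, VIM and LUM with plain _at sets. At 10 against 5 µM, 1 gene was called higher with no fold threshold and with probe sets in place of genes (TGM2 in both), and 1 lower with no fold threshold (LUM). At 10 µM against vehicle, the 2 called higher became 1 with no filter, with a floor at the 60th percentile, with the 2 groups alone and with low signals raised, and 0 with the mean of probe sets, plain _at sets, the methods' t-test, the actin covariate and without 10 µM replicates 2 and 3, but 4 with no fold threshold. TGM2 was then the 1 called lower, as with equal medians. The cause was not tested. Leaving out each array gave 3 higher and 1 lower at 5 µM, 0 higher and 0 to 1 lower at 10 against 5 µM, and 1 to 2 higher and 0 lower at 10 µM against vehicle. Over all genes, the methods' t-test called 333 higher and 104 lower at 10 µM against vehicle (limma: 716 and 176) and 13 and 101 at 10 against 5 µM (31 and 245), and the actin covariate 555 and 108 at 5 µM (1011 and 155), 0 and 12 at 10 against 5 µM, and 0 and 0 at 10 µM against vehicle (998 at an unadjusted p under 0.05).

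The replicate numbers did not show a pairing, since deviations of same-numbered arrays correlated at -0.089 to 0.179 and of others at -0.248 to 0.225. With the replicate number as a block, 3 genes were called higher and 1 lower at 5 µM and 2 higher at 10 µM, as without it, and the totals at 5 µM were 1015 and 152. Signals under the floor limit what can be said of FN1 and VIM with vehicle and of the 5 genes below it on every array.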
